A study of Mus musculus with 2 samples.

Results

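The 9 miRNA genes described here form 3 paralogous clusters in the mouse genome, each with a member of the mir-99/100, let-7 and mir-125 families in that order. They were taken by gene symbol from the list Mir99a, Mirlet7c-1 and Mir125b-2 (the Mir99a cluster), Mir99b, Mirlet7e and Mir125a (the Mir99b cluster), and Mir100, Mirlet7a-2 and Mir125b-1 (the Mir100 cluster). All 9 were found among the 2202 miRNA genes of the count tables, and none was chosen by its level. Short RNAs were sequenced in total RNA of hearts taken from B6CASTF1/J males, mice that are a hybrid of the B6 and CAST strains. The age label gives 36 days, and a free-text label puts months as the unit. Both libraries belong to 1 group with no labelled treatment, and they come from males with different numbers under a common donor record. With nothing to contrast, the data describe the clusters in heart and set library 1 beside library 2. The SD over n = 2 measures the spread between these samples, which may be partly technical. A heart holds many cell types, and in such bulk RNA fewer cells of a type and less RNA per cell cannot be told apart.

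MicroRNAs are short RNAs cut from hairpin precursors, and they lower the output of messenger RNAs that pair with them, mainly through the seed at bases 2 to 8. The let-7 family and the mir-125 family, the vertebrate relative of worm lin-4, are known as timers of development, and let-7 is known for holding down growth genes such as Hmga2 and the RNA-binding protein gene Lin28a. The mir-99/100 family is known for acting on the growth pathway of Mtor and Igf1r. Hairpins of a cluster can be cut from a common primary transcript, while each mature product can still be cut, stabilised and lost at its own rate.

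The mature products of the 5′ arm (5p) are shown first because several loci share all letters of theirs. They come from RefSeq on GRCm38.p6, the assembly also known as mm10, and the capitals mark the seed. Of the 9 members, 8 had a 5p entry and 9 had a 3p entry. Entries not used here are the 5p product of Mirlet7a-2 and the hairpins of Mir99b and Mir125b-2. The let-7a line is the entry of Mirlet7a-1, and this sequence was found whole in the Mirlet7a-2 hairpin.
miR-99a-5p (Mir99a): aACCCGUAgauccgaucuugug
miR-99b-5p (Mir99b): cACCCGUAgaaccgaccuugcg
miR-100-5p (Mir100): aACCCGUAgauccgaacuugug
let-7c-5p (Mirlet7c-1): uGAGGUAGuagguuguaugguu
let-7e-5p (Mirlet7e): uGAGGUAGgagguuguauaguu
let-7a-5p (Mirlet7a-1): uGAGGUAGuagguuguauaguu
miR-125a-5p (Mir125a): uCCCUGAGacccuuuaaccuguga
miR-125b-5p (Mir125b-1 and Mir125b-2): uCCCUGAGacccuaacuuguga

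Within each family the seed was the same at all 3 members, ACCCGUA for mir-99/100, GAGGUAG for let-7 and CCCUGAG for mir-125. Outside the seed the members differed by few bases, counted from 1 at the 5′ end with the base of the first-named product first. From miR-99a to miR-100 there was 1 substitution, U16A. From miR-99a to miR-99b there were 4, A1C, U11A, U16C and U21C, of which none lies in the seed. From let-7c to let-7a there was 1, G19A, and from let-7a to let-7e also 1, U9G. The miR-125b and miR-125a products were the same over their first 13 bases and had lengths of 22 and 24.

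The 9 loci fell in 2 classes by these letters. At 5 loci (Mir99a, Mir99b, Mir100, Mirlet7e and Mir125a) the 5p product was found at no other miRNA locus of the sequence table. At the other 4 the same 22 bases were also found elsewhere, since Mir125b-1 and Mir125b-2 share theirs with each other, Mirlet7c-1 with Mirlet7c-2 on chromosome 15, and Mirlet7a-2 with Mirlet7a-1 on chromosome 13. For the let-7 pairs the hairpins show how little sets the loci apart. The capitals below mark the shared product inside the hairpin, with 5 bases before and 6 after it. The first base before the product differed in both pairs, and after it the second base did, so a run of 23 bases was common to each pair.
Mirlet7a-2: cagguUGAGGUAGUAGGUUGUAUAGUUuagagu
Mirlet7a-1: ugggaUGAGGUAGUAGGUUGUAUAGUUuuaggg
Mirlet7c-1: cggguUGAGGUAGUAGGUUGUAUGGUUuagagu
Mirlet7c-2: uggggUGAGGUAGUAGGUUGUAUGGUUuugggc

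The products of the 3′ arm (3p) are given for these 4 loci because they differ between the copies, and each was found at no other locus of the table. The capitals mark bases 2 to 8. The same held for the 3p products of the other 5 members.
miR-125b-1-3p: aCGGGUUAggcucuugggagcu
miR-125b-2-3p: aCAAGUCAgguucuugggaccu
let-7a-2-3p: cUGUACAGccuccuagcuuuc
let-7c-1-3p: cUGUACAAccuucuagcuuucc

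All 9 hairpins lie on the plus strand, and the order mir-99/100, let-7, mir-125 was kept in every cluster. In the Mir99a cluster, Mir99a (chr16:77598936-77599000) and Mirlet7c-1 (chr16:77599657-77599750) start 721 bp apart, and Mir125b-2 (chr16:77646273-77646343) follows 47337 bp from the start of Mir99a. All 3 lie in the long non-coding gene Mir99ahg and overlap none of its exons. In the Mir99b cluster, Mir99b (chr17:17830188-17830257), Mirlet7e (chr17:17830352-17830444) and Mir125a (chr17:17830812-17830879) span 692 bp inside Spaca6, a gene known from sperm. Mir125a overlaps an exon of at least 1 annotated Spaca6 transcript, and the other members overlap none. In the Mir100 cluster, Mir100 (chr9:41531425-41531504), Mirlet7a-2 (chr9:41536716-41536811) and Mir125b-1 (chr9:41581926-41582002) span 50578 bp. They overlap no exon of the non-coding genes 3110039I08Rik and Gm49317, which contain them on the same strand. Mir125b-1 also lies in the small non-coding gene Gm28119. Further overlaps are those of Mir125b-2 with an exon of C130023A14Rik on the same strand, and of Mir100 with an exon of Gm48742 on the opposite strand. Gm11146 runs opposite Mir99a and Mirlet7c-1 without exon overlap.

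**Figure D1:**
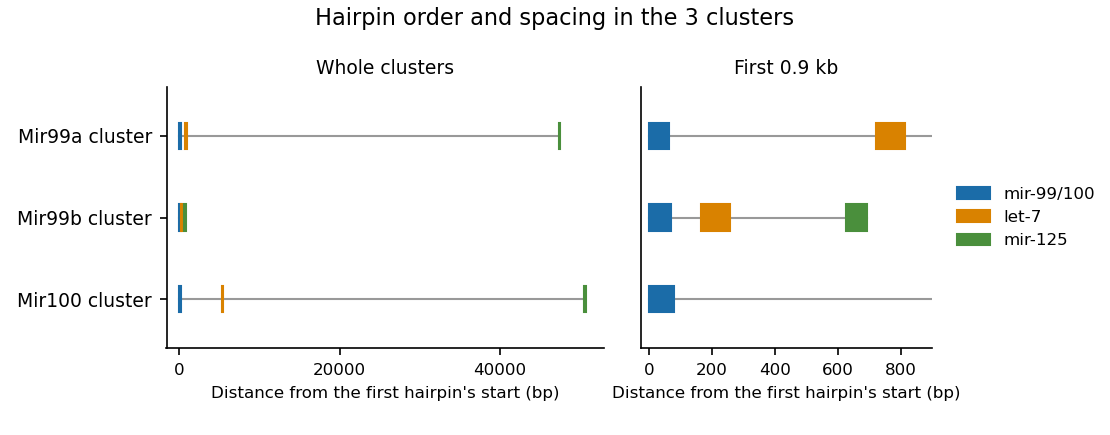
Hairpins of the 3 clusters by distance from the start of the first hairpin (bp), over the whole clusters at left and over the first 0.9 kb at right, coloured by family; at left the hairpins are drawn wider than scale so that they can be seen. The Mir99b cluster spans 692 bp, against 47408 bp for the Mir99a cluster and 50578 bp for the Mir100 cluster.

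Library 1 held 5479149 reads and library 2 held 4893073, and 1999362 and 1862526 of these were counted at miRNA genes in the sense direction. A further 41.5% and 42.9% of reads mapped to several places and were counted at no gene. Levels are counts per 1000000 (CPM) of the assigned reads. They sum both arms of a hairpin, and intervals are exact Clopper-Pearson 95% intervals that cover counting error only. The heart label was checked on fixed marker lists. The cardiac muscle list took 0.856% and 0.670% of assigned reads in libraries 1 and 2, with a mean of at least 100 CPM for 3 of its 7 genes. Its genes below that level were the numbered copies of Mir1a and Mir133a. Reads that fit several copies were counted at no gene, so the sum cannot show the level of these products as a whole. The endothelial marker Mir126a took 4.89% and 6.38%. The smooth muscle list took 3.95% and 3.87%, the leukocyte list 0.689% and 0.678%, the erythroid list 0.245% and 0.197%, and the liver marker Mir122 0.0119% and 0.00134%. The neuronal list held 1 read in each library, with 5 of 6 genes at 0 in both. That list is made of numbered copies of Mir124a and Mir9. Reads that fit several copies were counted at no gene, so its near absence cannot serve as a check of the label.

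Together the 9 genes took 6.14% (6.11 to 6.18) of assigned reads in library 1 and 6.18% (6.14 to 6.21) in library 2. The mean of 6.16% ± 0.0242 (SD, n = 2) held although single members moved. The Mir99a cluster took 3.23% ± 0.251, the Mir99b cluster 2.30% ± 0.244 and the Mir100 cluster 0.635% ± 0.0169. The Mir100 cluster was thus the lowest of the 3 in both libraries. The Mir99a cluster was higher than the Mir99b cluster in both, at 3.05% against 2.47% in library 1 and 3.41% against 2.12% in library 2. These cluster shares describe counted reads. The Mir99a and Mir100 clusters have members with a shared product, and the Mir99b cluster has none. The part of uncounted, multiply mapping reads in the cluster order was not tested. All 9 members reached a mean of 100 CPM, a level reached by 6.4% of the 2202 annotated genes.

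Sorted by family, the mir-99/100 members held most of these reads, with 70.5% of the 9 genes' total in library 1 and 71.0% in library 2. The mir-125 members held 17.8% and 16.3%, and the let-7 members 11.7% and 12.7%. This order was the same in both libraries. It holds for counted reads, and reads that mapped to several places were counted at no gene. Some let-7 and mir-125 members share a product with another locus, while no mir-99/100 member does. The part of such uncounted reads in the family order was not tested.

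**Figure D2:**
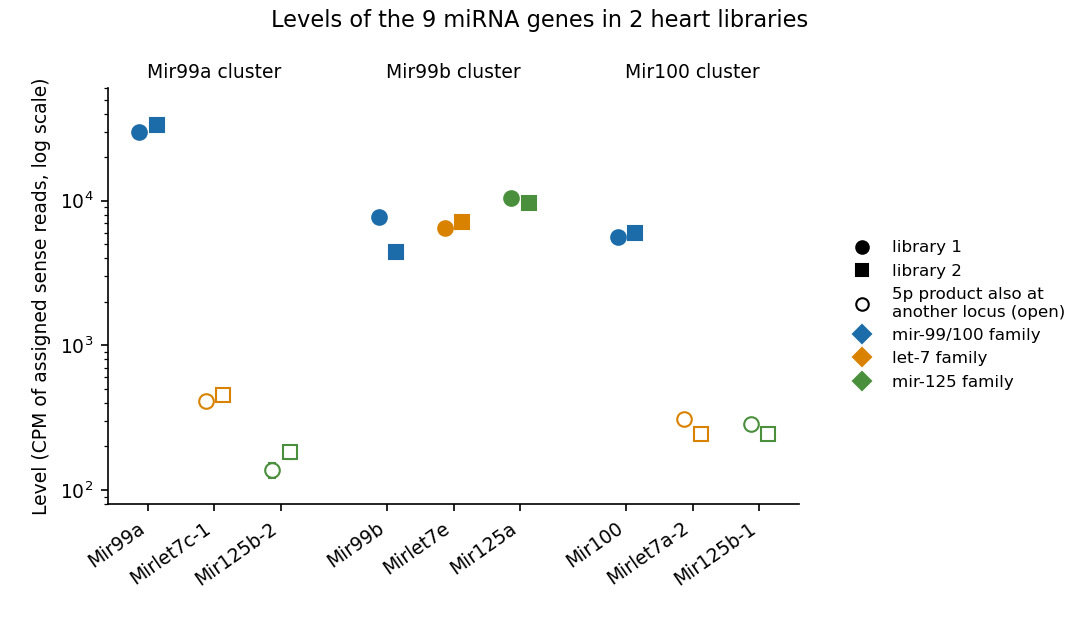
Level of each member in library 1 (circles) and library 2 (squares) in CPM on a log axis, with exact 95% counting intervals that are mostly smaller than the symbols. The 5 filled members lie between 4443 and 33416 CPM, and the 4 open members, whose 5p product is also at another locus, lie between 137 and 456 CPM.

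Among the mir-99/100 genes, Mir99a was the highest member in both libraries. It had 59884 reads or 29952 CPM in library 1 and 62239 reads or 33416 CPM in library 2, a mean of 31684 ± 2450 CPM (SD, n = 2). It ranked 12 among all miRNA genes by mean level. Mir99b had 15420 reads or 7712 CPM in library 1 and 8275 reads or 4443 CPM in library 2, a mean of 6078 ± 2312 CPM. It was the member with the widest spread, with an SD of 38.0% of the mean. Mir100, at 11274 and 11149 reads or 5639 and 5986 CPM, had the narrowest spread, 4.22% of its mean of 5812 ± 245 CPM. Mir99b was above Mir100 in library 1, with a ratio of 1.37 (exact 95% interval 1.33 to 1.40), and below it in library 2, at 0.742 (0.721 to 0.764). The order of these 2 genes was therefore within the spread between libraries. Mir99a exceeded Mir100 by similar factors, 5.31 (5.21 to 5.42) and 5.58 (5.47 to 5.70).

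Among the let-7 genes of the clusters, Mirlet7e held nearly all counted reads. It had 12902 reads or 6453 CPM in library 1 and 13333 reads or 7159 CPM in library 2, a mean of 6806 ± 499 CPM. Mirlet7c-1 had 830 and 850 reads, or 415 and 456 CPM (436 ± 29.2), and Mirlet7a-2 had 619 and 452 reads, or 310 and 243 CPM (276 ± 47.3). Mirlet7e was 15.5 times as high as Mirlet7c-1 in library 1 (exact 95% interval 14.5 to 16.7) and 15.7 times in library 2 (14.6 to 16.8). These values describe counted reads, since the 2 lower genes carry a shared 5p product.

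The reading of Mirlet7e depends on strand. A second annotated miRNA gene, Gm25927, covers the locus on the opposite strand (chr17:17830343-17830459). In the deposited column that joins both strands, Mirlet7e stood at 0 reads in both libraries, and the antisense column of Gm25927 held the same 12902 and 13333 reads that Mirlet7e had on its own strand. Gm25927 itself had 0 sense reads, so its level has an upper limit of 3 counts, equal to 1.5 CPM in the first library and 1.61 CPM in the other. None of the 9 members had a read in its own antisense column.

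Among the mir-125 genes, Mir125a was highest at 21025 and 17937 reads, or 10516 and 9630 CPM, a mean of 10073 ± 626 CPM and rank 18 of all miRNA genes. Mir125b-1 had 570 and 454 reads, or 285 and 244 CPM (264 ± 29.2). Mir125b-2, the lowest of the 9, had 273 and 340 reads, or 137 and 183 CPM (160 ± 32.5). Mir125b-1 was above Mir125b-2 in both libraries, by 2.09 times (exact 95% interval 1.80 to 2.42) and 1.34 times (1.16 to 1.54). Summed over both copies, miR-125b loci had 843 and 794 reads, or 424 ± 3.30 CPM. Mir125a exceeded this sum by 24.9 times (23.3 to 26.7) and 22.6 times (21 to 24.3). The sum and these factors describe counted reads, since both Mir125b copies carry the same product. Reads that mapped to several places were counted at no gene, and adding the copies does not return them. The factors therefore cannot show the level of the miR-125b product as a whole.

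The 2 classes of loci did not overlap in level. The 4 members with a shared 5p product lay between 137 and 456 CPM over both libraries, and the 5 without one between 4443 and 33416 CPM. The part of unassigned multiply mapping reads in this difference was not tested, and such reads were not traced to a locus. Over the 1018 counted genes matched to the sequence table by symbol, 4.08% of 98 loci with a mature product shared with another locus reached a mean of 1000 CPM, against 6.20% of 920 loci without one. At a mean of 100 CPM the shares were 18.4% and 11.7%. Among these matched loci, those with a shared product had a smaller share at the higher threshold and a larger share at the lower. These differences were not tested, and the smaller share rests on 4 loci. In counts, 18 and 108 loci reached 100 CPM, and 4 and 57 of them reached 1000 CPM. These loci were classed by the products of either arm and the members by the 5p product alone, so the classes are not alike. Only products entered under a locus's own symbol were used for these loci. Mirlet7a-2, which has no 5p entry, thus fell among those without a shared product. Other loci with missing entries may be misplaced in the same way. The copies outside the clusters were also low but above the members. Mirlet7c-2 was 2.99 and 3.28 times as high as Mirlet7c-1, and Mirlet7a-1 was 2.36 and 3.40 times as high as Mirlet7a-2.

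By mean level the order was Mir99a, Mir125a, Mirlet7e, Mir99b, Mir100, Mirlet7c-1, Mirlet7a-2, Mir125b-1 and Mir125b-2. Neighbours whose order turned between the libraries were Mir99b with Mirlet7e and with Mir100, and Mirlet7a-2 with Mir125b-1. Divided by the annotated hairpin length (65 to 96 nt), the mean levels put Mir99b above Mirlet7e and Mir125b-1 above Mirlet7a-2, and the other positions stayed. That division was chosen after the values were seen.

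Ratios between members of a cluster were compared next, within each library, as part of 18 ratios described in all without a test across them. In the Mir99a cluster the mir-99/100 member exceeded the let-7 member by 72.1 times (exact 95% interval 67.4 to 77.4) in library 1 and 73.2 times (68.4 to 78.4) in library 2. It exceeded the mir-125 member by 219 times (195 to 248) and 183 times (165 to 204). Mir99a thus made up 98.2% and 98.1% of the cluster's counted reads. In the Mir100 cluster, Mir100 exceeded Mirlet7a-2 by 18.2 times (16.8 to 19.8) and 24.7 times (22.4 to 27.2), and Mir125b-1 by 19.8 times (18.2 to 21.6) and 24.6 times (22.4 to 27.0). Mirlet7a-2 and Mir125b-1 could not be set apart, with ratios of 1.09 (0.968 to 1.22) and 0.996 (0.872 to 1.14). In both of these clusters the mir-99/100 member was the highest in both libraries.

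The Mir99b cluster had a more even make-up. Mir125a was its highest member in both libraries, with 42.6% and 45.4% of the cluster's reads. Mirlet7e held 26.1% and 33.7%, and Mir99b 31.2% and 20.9%. Mir99b was above Mirlet7e in library 1 at a ratio of 1.20 (1.17 to 1.22) and below it in library 2 at 0.621 (0.604 to 0.638), so their order turned between the libraries. Mirlet7e stood at 0.614 of Mir125a (0.60 to 0.627) in library 1 and 0.743 (0.727 to 0.760) in library 2. All 3 members of this cluster have a 5p product found at 1 locus, while the other clusters have 1 such member each. The part of uncounted, multiply mapping reads in the more even make-up was not tested. An exact two-sided sign-flip test over 2 libraries cannot go under p = 0.5, so no such test was run on these ratios.

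**Figure D3:**
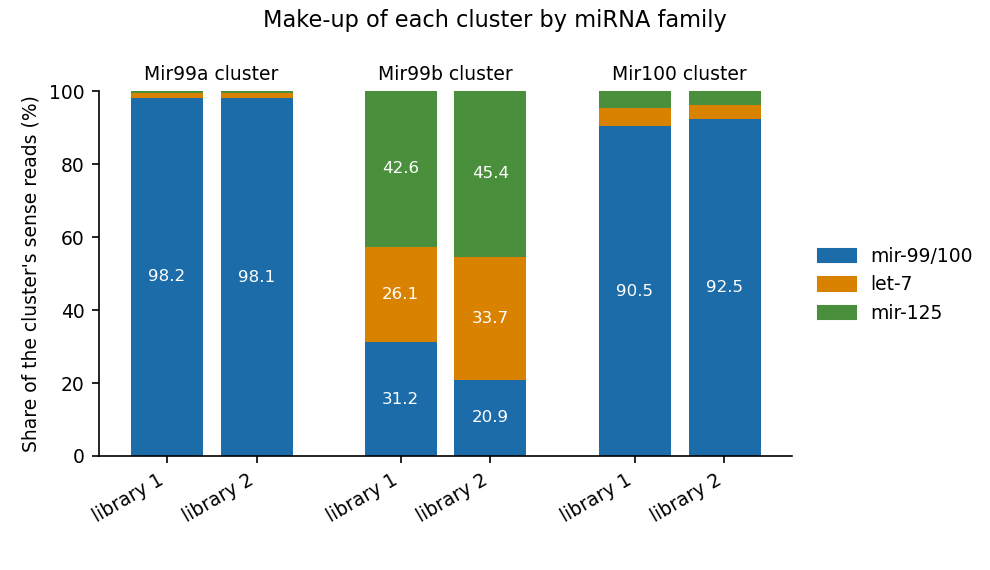
Share of each cluster's counted sense reads (%) held by its mir-99/100, let-7 and mir-125 member, by library. The mir-99/100 member takes 98.2% and 98.1% of the Mir99a cluster and 90.5% and 92.5% of the Mir100 cluster, and 31.2% and 20.9% of the Mir99b cluster.

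Next, the members were set beside the other loci with the same seed. No locus outside the clusters carried the mir-99/100 seed, so the 3 members made up the family, at 4.33% and 4.38% of assigned reads. The mir-125 seed was found at 6 counted loci, of which Mir351, Mir6367 and Mir6394 are not members. Of these, Mir351 stood at 1625 and 1205 CPM (1415 ± 296), above both Mir125b genes and below Mir125a, and the other pair had no reads. The members held 87.1% and 89.3% of reads on mir-125 seed loci. For let-7 the picture was the reverse, with 14 counted loci carrying the seed and the 3 members holding 2.34% and 2.82% of their reads. Mirlet7i, at 97460 and 87492 CPM, and Mirlet7g, at 86722 and 72246 CPM, led that family. Mirlet7b (51621 ± 1021 CPM) and Mirlet7d (50072 ± 3731 CPM) came next. These seed shares and this order hold for counted reads by locus. The let-7a, let-7c and miR-125b products are each shared between loci, and reads that mapped to several places were counted at no gene.

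**Figure D4:**
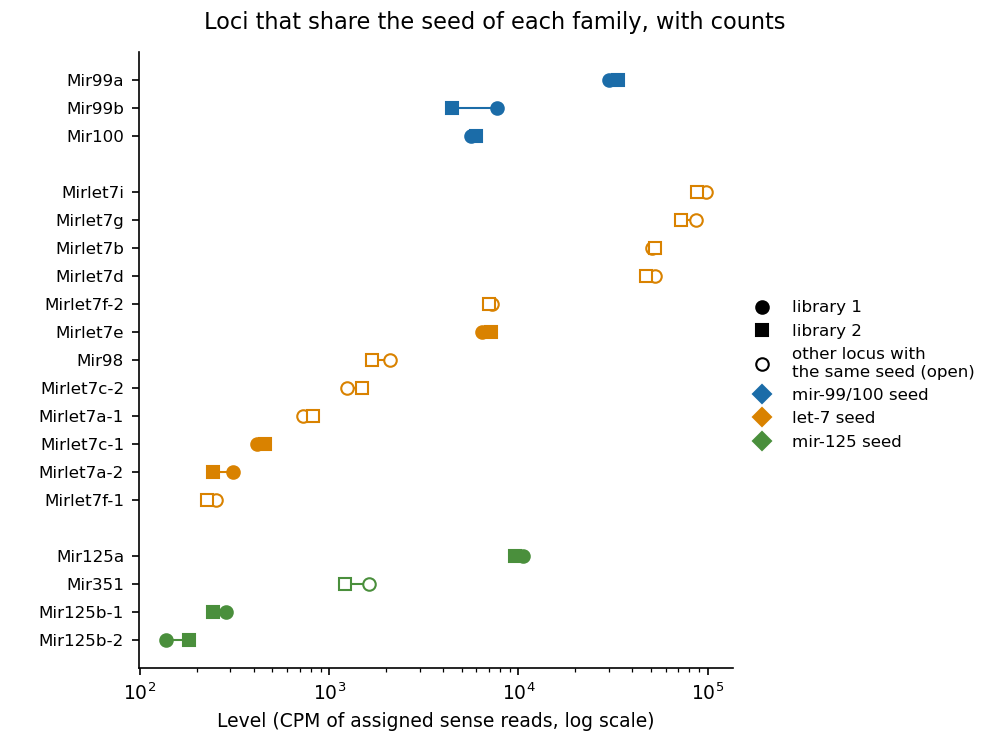
Level in CPM (log axis) of every locus with reads that carries the seed of the mir-99/100, let-7 or mir-125 family, in library 1 (circles) and library 2 (squares); members of the 3 clusters are filled and other loci open. All mir-99/100 loci are members, and the 4 highest let-7 loci, from 47434 to 97460 CPM, are not.

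Mirlet7e was the member nearest to the abundant let-7 genes and still stood under Mirlet7f-2 in mean level (7132 ± 150 CPM), with the order turning in library 2. Mir98 (1889 ± 305 CPM), Mirlet7c-2 (1369 ± 181), Mirlet7a-1 (777 ± 67.1) and Mirlet7f-1 (238 ± 18.1) completed the let-7 loci with reads, while Mir1961 and Mir7k had none. The mir-10 genes, whose products resemble miR-99 and miR-100 with another seed (ACCCUGU), were lower than every mir-99/100 member, with Mir10a at 1377 and 1272 CPM and Mir10b at 697 and 667 CPM.

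The genes closest to each member in both libraries, by distance over the 2 values of log2(CPM + 1), were mostly of other families. Mir99b lay nearest Mir93 (7212 and 4297 CPM, distance 0.11), which had a similar drop in library 2. Mir99a lay nearest Mir143 (0.39), Mir125a nearest Mir30a (0.12), Mir100 nearest Mir151 (0.10) and Mirlet7e nearest Mirlet7f-2 (0.17). Mirlet7c-1 lay nearest Mir30c-1 (0.13) and Mir125b-2 nearest Mir378d (0.12). Mirlet7a-2 and Mir125b-1 had the same nearest gene, Mir542 (295 and 246 CPM, distances 0.07 and 0.05). No member had another member as its nearest gene, where 9 of the 2202 genes compared were members. The distance mixes level with change between libraries, so it does not show whether members vary together.

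The libraries were then compared on read counts with an exact two-sided conditional binomial test over the 344 genes with 10 or more counts summed, with Benjamini-Hochberg adjustment over all 344. It sets 2 libraries against each other and not conditions, and it models counting error alone. Of the 9 members, 0 passed an adjusted p of 0.05 together with a difference of at least 2-fold, against 17.2% of all tested genes. Among the 141 tested genes with mean levels of at least 100 CPM, as all members had, 17 passed both. By unadjusted p under 0.05, 8 of the 9 differed, against 194 of all 344. At an adjusted p under 0.05 with no fold criterion also 8 did, against 54.1% of all tested genes and 113 of the 141 with mean levels of at least 100 CPM. Of the 8, 4 were higher in library 1, a direction taken by 36.3% of tested genes, and 4 in library 2, taken by 17.7%. With scaling by TMM, edgeR's trimmed mean of log ratios, 1 member was higher in library 1 and 6 in library 2, against 23.3% and 26.7% of tested genes under the same scaling.

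Mir99b had the largest difference of the members, with a log2 ratio of library 2 over library 1 of -0.80, a 1.74-fold drop. Its adjusted p in the exact binomial test was too small for the computer's number range. The remaining 8 members lay within 1.5-fold, as did 58.1% of all tested genes and 71.6% of those with a mean of at least 100 CPM. Mir125b-2 (0.42, adjusted p = 0.000975, exact binomial test), Mir99a (0.16, 1.74e-80), Mirlet7e (0.15, 2.41e-16) and Mir100 (0.09, 2.58e-05) were higher in library 2. Mirlet7a-2 (-0.35, 0.000238) and Mir125b-1 (-0.23, 0.0263) were higher in library 1, and with TMM scaling neither passed the exact test (adjusted p = 0.128 and 0.805). Mir125a was higher in library 1 with scaling to assigned totals (-0.13, 2.62e-17, exact binomial test) but turned to 0.06 under TMM and 0.06 under DESeq2 scaling. Mirlet7c-1 did not pass the exact test (0.14, adjusted p = 0.0939), and passed it with TMM (0.33, 1.34e-05). Mir99b was thus the member whose higher level in library 1 passed under each of the 3 scalings.

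The median log2 ratio of all tested genes was -0.19, and TMM scaling added 0.19 to each ratio. Relative to that median, the members lay between -0.61 (Mir99b) and 0.61 (Mir125b-2). The median size of the log2 ratio, whatever its sign, was 0.16 over the 9 members, 0.46 over all tested genes and 0.34 over those with a mean of at least 100 CPM. Precision follows depth, with 273 to 850 reads for the 4 low members and 8275 to 62239 for the 5 high ones.

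**Figure D5:**
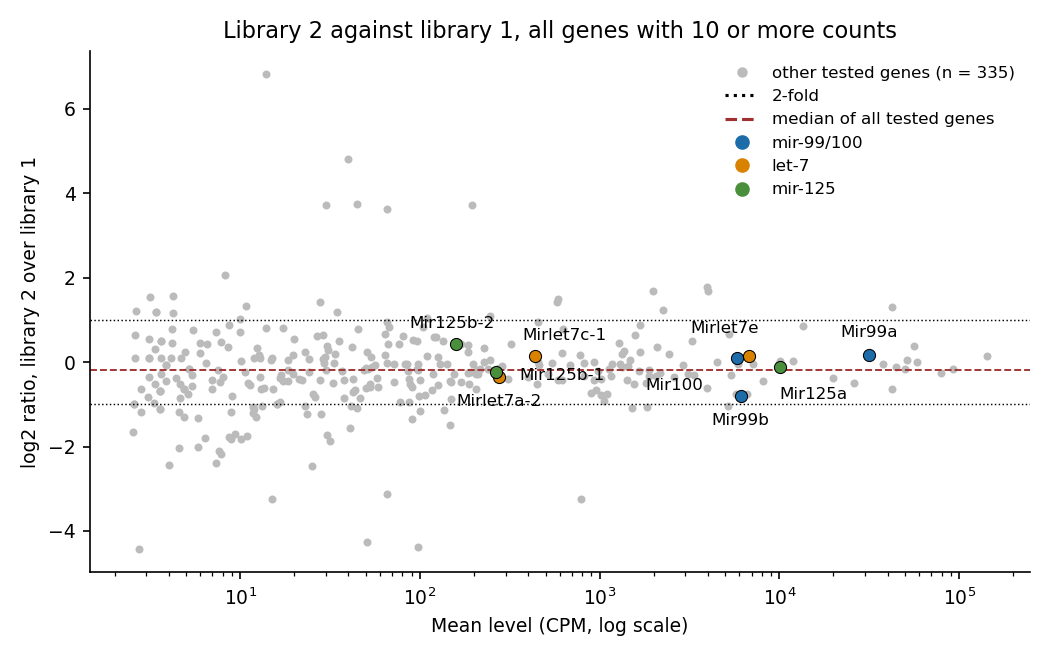
Log2 ratio of library 2 over library 1 against mean level (CPM, log axis) for all 344 tested genes (grey) and the 9 members (coloured by family); dotted lines mark 2-fold and the dashed line the median of all tested genes. All members lie inside the 2-fold lines, and Mir99b is farthest from 0 at -0.80.

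Members of a cluster did not share a direction in every case. All 3 ratios of the Mir99a cluster were above 0, at 0.16, 0.14 and 0.42. In the Mir99b cluster, whose hairpins lie within 692 bp, Mir99b fell by 0.80 on the log2 scale while Mirlet7e rose by 0.15. The ratio of Mir99b to Mir125a was 0.733 (exact 95% interval 0.718 to 0.749) in library 1 and 0.461 (0.449 to 0.474) in library 2, intervals that do not overlap. In the Mir100 cluster, Mir100 (0.09) and its partners Mirlet7a-2 (-0.35) and Mir125b-1 (-0.23) also lay on opposite sides of 0. With TMM scaling the signs stayed, at 0.28 for Mir100, -0.16 for Mirlet7a-2 and -0.04 for Mir125b-1. Neither partner passed the adjusted p under that scaling. Of the marker lists, the cardiac muscle list was lower in library 2 (0.856% and 0.670%) and the endothelial marker higher (4.89% and 6.38%). The cardiac genes did not move together, since Mir208a had a log2 ratio of -1.05 and Mir499 one of 1.23, a pair named after the values were seen. The skeletal muscle list had 197 reads in library 1 and 10 in library 2. The part of cell make-up in the members' differences was not tested.

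Related genes outside the clusters were described from fixed lists. Of the 9 other let-7 genes, 0 were called at 2-fold, and by adjusted p alone in the exact binomial test 5 were higher in library 1 and 3 in the other, with a median log2 ratio of -0.15, where the 9 members had 0.09. Of the mir-10 genes, 1 of 2 passed the adjusted p, Mir10a at -0.11, and Mir351 passed at -0.43. These genes were all tested in the same fit over 344 genes, whose median was -0.19.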

How the data were processed

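Short RNAs were sequenced from 2 heart libraries, and the authors deposited a table of raw counts by gene identifier for each. The deposited counts are whole numbers with no normalization, in 3 columns: both strands together, sense and antisense, the strand being read from the values. Per the text deposited beside the tables, the authors used assembly mm10 and annotation M21; the aligner and the counter were not given in the sources used here. Of the 4 rows that name no gene, 3 held reads on the sense strand (means of 14.3% unmapped, 42.2% multiply mapping and 6.19% outside miRNA genes), and all 4 stayed out of totals and tests.

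Symbols, positions and hosts came from GENCODE M21, and sequences from RefSeq. CPM used sense counts over the sense total. The libraries were not copies (chi-square 92268 on 343 degrees of freedom over tested genes). Libraries were compared with an exact conditional binomial test (scipy 1.17.1), Benjamini-Hochberg adjusted over all genes with 10 or more counts summed, called at 0.05 and 2-fold, with 0.5 added to counts for log2 ratios. The test was run on simulated counts with known changes, Poisson error alone and the true scaling given. That run does not address spread between animals or the choice of scaling. With 1 group, edgeR's quasi-likelihood test has no contrast. edgeR 4.0.16 (TMM) and DESeq2 1.42.0 gave alternative scalings.

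Named genes are the 9 members, same-seed loci at 100 CPM or more, and the nearest gene to each member. Loci with no reads, Mir10a, Mir10b, list sums and some genes of the lists are also given. Members and lists were chosen with earlier results of these data known.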

Additional observations from a re-analysis of the deposited data

How the results depend on the processing

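The share of assigned reads on the 9 members (6.16%) was 7.11% with both strands counted together, 2.30% of all reads, 7.19% without the most abundant gene and 6.05% without the 4 members that share a product, and 6.14% to 6.18% with either library left out. With both strands together Mirlet7e is at 0, and of the members' reads mir-99/100 then took 79.5%, let-7 1.30% and mir-125 19.2%, against 70.7%, 12.2% and 17.0%. Without the shared products, mir-99/100 took 72.1% and let-7 11.3%. Leaving out those members returns no reads that mapped to several places, so it cannot show how such reads would change the shares. The log2 ratio of Mir99b over Mirlet7e ran from -0.69 to 0.26 and that of Mirlet7a-2 over Mir125b-1 from -0.0064 to 0.12 with either library left out. The other 7 ratios inside clusters kept their direction. Mir125a turned between the libraries, to 0.063 with TMM and 0.060 with DESeq2 scaling; the other 8 members kept theirs. Under both scalings Mirlet7a-2 and Mir125b-1 no longer passed the adjusted p and Mirlet7c-1 did, and with both strands counted together the same held for Mir125b-1 and Mirlet7c-1. Ratios with Mirlet7e could not be computed from that column. The count of members called was 0 with TMM, DESeq2, other count minimums and both strands, 1 at 1.5-fold (Mir99b, against 30.5% of all tested genes) and 8 with no fold criterion (54.1%). No paired analysis was possible because the libraries form 1 group.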
